A study of Mus musculus with 8 samples.

Results

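The genes described here are 10 transcription factors of the AP-1 and EGR families, namely Fos, Fosb, Fosl1, Fosl2, Jun, Junb, Jund, Atf3, Egr1 and Egr2, taken by gene symbol from 17740 genes measured in high-fat diet (HFD) mice and 16436 measured in normal diet (ND) mice, of which 16136 were in both tables. All 10 were found in both tables, and all 10 passed the filter on low counts in both diets. RNA-seq was done on macrophages of epididymal white adipose tissue (eWAT) from wild-type mice that had been fed either a chow diet (ND) or an HFD for 8 weeks. Adhesion-related macrophages (ARMs) were sorted from cells that floated with the adipocytes after collagenase digestion, and stromal macrophages (SMs, labelled NARM) were sorted from the stromal vascular pellet of the same kind of digest. Each of the 4 combinations of diet and cell type had 2 libraries, made from pools of 6 mice (HFD) or 10 mice (ND). The mice were C57BL/6J males, the diet was begun at 6 weeks of age, and the labels name no treatment other than the diet.

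AP-1 is a dimer of leucine zipper proteins, usually 1 FOS protein with 1 JUN protein, and ATF3 is a related protein that can pair with JUN proteins. EGR1 and EGR2 bind GC-rich sites through zinc fingers. Most of these genes, though not all, are immediate-early genes. Growth factors, cytokines, stress and mechanical or enzymatic handling of tissue switch such genes on within minutes through MAP kinases, SRF and CREB. This needs no new protein synthesis, and the transcripts are short-lived. In macrophages such genes are best known from responses to inflammatory signals and from cells freshly released from solid tissue.

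All 8 libraries came from tissue digested with collagenase, and no undigested sample was examined. The ARM fraction was additionally vortexed with beads to break the adipocytes before sorting, a step that SMs did not go through, so that cell type and handling cannot be told apart in any ARM against SM comparison below. A lower value in bulk RNA can come from fewer expressing cells or from less RNA in each cell, which cannot be told apart either. Total estimated counts were 18288775 to 19040133 in the HFD libraries and 14508824 to 16319038 in the ND libraries. The 10 genes took 1.63% and 1.76% of all counts in the HFD ARM libraries against 1.95% and 1.91% in the HFD SM libraries. In ND mice they took 1.35% and 1.49% in ARMs against 1.55% and 1.62% in SMs, so the ARM libraries held the smaller share in both diets. The counts behind single values ran from 356 upwards. The labels do not say whether the 2 libraries of a group came from separate groups of mice, so the p-values measure the spread between these libraries, which may be technical.

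The 12 macrophage markers checked (among them Adgre1, Csf1r, Cd68 and Mertk) were all detected, with 0 of 12 called between ARMs and SMs in either diet by edgeR (4 in HFD mice and 2 in ND mice had an unadjusted p under 0.05). Markers of other cells did differ. Of 12 adipocyte markers, 12 were called higher in HFD ARMs (summed level 1140 to 1330 as CPM, counts scaled to library size, against 632 to 641 in SMs) and 9 in ND ARMs (970 to 1270 against 729 to 863). Fibroblast and progenitor markers were called higher for 5 of 11 in HFD ARMs (605 to 757 CPM against 447 to 480) and 9 of 11 in ND ARMs (708 to 1020 against 266 to 332). Endothelial markers were called higher for 9 of 10 in HFD ARMs (162 to 174 CPM against 53.9 to 75.1) and 1 of 10 in ND ARMs, and mesothelial markers for 0 of 7 and 6 of 7 (36.4 to 49.9 CPM against 9.57 to 13.9 in ND mice). Neutrophil and mast cell markers were called higher for 1 of 7 in HFD ARMs (18.2 to 19.9 CPM against 13.3 to 14.7), and in ND ARMs 1 of 7, S100a9, was called lower (5.68 to 15.8 CPM against 18.6 to 24 for the list). None of these markers was at 0 in all libraries, and the part of such cells in the values below was not tested.

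The regulatory sequence upstream of these genes holds well-known elements through which they are switched on. RefSeq windows were matched for 8 of the 10 genes. The 250 bases before the annotated start are shown for the 4 genes whose ARM level was lower in HFD mice at an adjusted p under 0.05 (Fos, Jun, Junb and Atf3), and for Egr2, which did not pass it (build GRCm38.p6, read 5′ to 3′ on the gene's strand). Capitals mark matches on either strand to 5 motifs: TGANTCA and TGACNTCA (AP-1 and AP-1/ATF sites), TGACGT (core of the CREB/ATF site, which overlaps TGACNTCA where both occur), GCGNGGGCG (EGR site) and the CArG box (SRF site).
Fos, chr12:85473640-85473889, plus strand: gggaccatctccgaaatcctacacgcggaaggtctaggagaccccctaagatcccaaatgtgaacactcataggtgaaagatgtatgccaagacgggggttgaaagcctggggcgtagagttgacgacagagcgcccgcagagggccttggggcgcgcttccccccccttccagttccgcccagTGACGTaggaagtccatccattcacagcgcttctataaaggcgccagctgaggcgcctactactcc
Jun, chr4:95052223-95052472, minus strand: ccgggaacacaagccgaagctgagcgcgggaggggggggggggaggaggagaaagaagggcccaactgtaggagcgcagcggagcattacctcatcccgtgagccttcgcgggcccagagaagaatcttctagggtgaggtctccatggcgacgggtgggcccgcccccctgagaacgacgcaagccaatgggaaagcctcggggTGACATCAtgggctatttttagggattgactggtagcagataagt
Junb, chr8:84978749-84978998, minus strand: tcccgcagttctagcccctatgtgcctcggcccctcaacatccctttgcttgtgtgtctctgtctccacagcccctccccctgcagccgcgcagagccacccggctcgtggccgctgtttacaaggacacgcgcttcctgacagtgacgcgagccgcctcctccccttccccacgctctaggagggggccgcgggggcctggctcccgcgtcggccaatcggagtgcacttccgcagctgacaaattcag
Atf3, chr1:191183334-191183583, minus strand: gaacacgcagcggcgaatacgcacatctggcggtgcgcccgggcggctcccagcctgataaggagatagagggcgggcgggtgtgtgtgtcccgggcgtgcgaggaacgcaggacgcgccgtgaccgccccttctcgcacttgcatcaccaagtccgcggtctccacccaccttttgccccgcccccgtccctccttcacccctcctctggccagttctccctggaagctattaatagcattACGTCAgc
Egr2, chr10:67537619-67537868, plus strand: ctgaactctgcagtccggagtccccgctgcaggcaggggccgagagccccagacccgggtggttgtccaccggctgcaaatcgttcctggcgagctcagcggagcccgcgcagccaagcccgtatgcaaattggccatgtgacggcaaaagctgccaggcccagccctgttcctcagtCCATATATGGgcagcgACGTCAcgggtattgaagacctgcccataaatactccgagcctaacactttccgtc

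In these windows Fos held TGACGT at 66 to 61 bases before the start, Jun held TGACATCA at 45 to 38 bases, and Atf3 held TGACGT on the opposite strand (printed as ACGTCA) at 8 to 3 bases. Egr2 held a CArG box, CCATATATGG, at 72 to 63 bases and TGACGT on the opposite strand at 56 to 51 bases. A CArG box was found in 4 of the 5 windows of Egr2 and in no window of the other 7 genes. Several of these Egr2 windows overlap and hold the same CCATATATGG. The first window of Egr2, which is the one counted in the share over all genes below, held none of the 5 motifs. Of the genes not printed, Fosb and Fosl2 each held GCGGGGGCG, at 50 to 42 and 79 to 71 bases before the start. Junb and Jund held none of the 5 motifs in this window. Over the first window of 27025 genes the CArG box was present in 1.4%, TGANTCA in 6.87%, TGACNTCA in 7.59%, TGACGT in 6.56% and GCGNGGGCG in 4.65%. Within these windows the 4 genes printed for a lower ARM level in HFD mice did not share 1 motif among those searched. Sequence outside the windows was not searched, so a CArG box or other site lying there would have been missed. Whether the 4 genes share a motif outside the windows was not tested.

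All 10 factors were expressed in all 8 libraries, and several stood among the most abundant transcripts. Per length of transcript (FPKM), Junb was the highest of the 10 in both cell types of HFD mice and ranked between 23 and 28 among all genes in these libraries. Egr1 followed, at ranks 30 to 41. Fosl1 was the lowest of the 10 in each of the 4 groups. In HFD ARMs the descending order was Junb, Egr1, Fosb, Fos, then Atf3 and Jund with overlapping libraries, then Jun, Fosl2, Egr2 and Fosl1. In HFD SMs Fos stood above Fosb by mean, but their libraries overlapped. In ND ARMs Junb overlapped Egr1 and Fos overlapped Atf3. In ND SMs the overlapping neighbours were Egr1 and Junb, Fosb and Jun, and Jund and Fosl2. The neighbours not named here had libraries that did not overlap, and no test was made between genes.

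**Figure D1:**
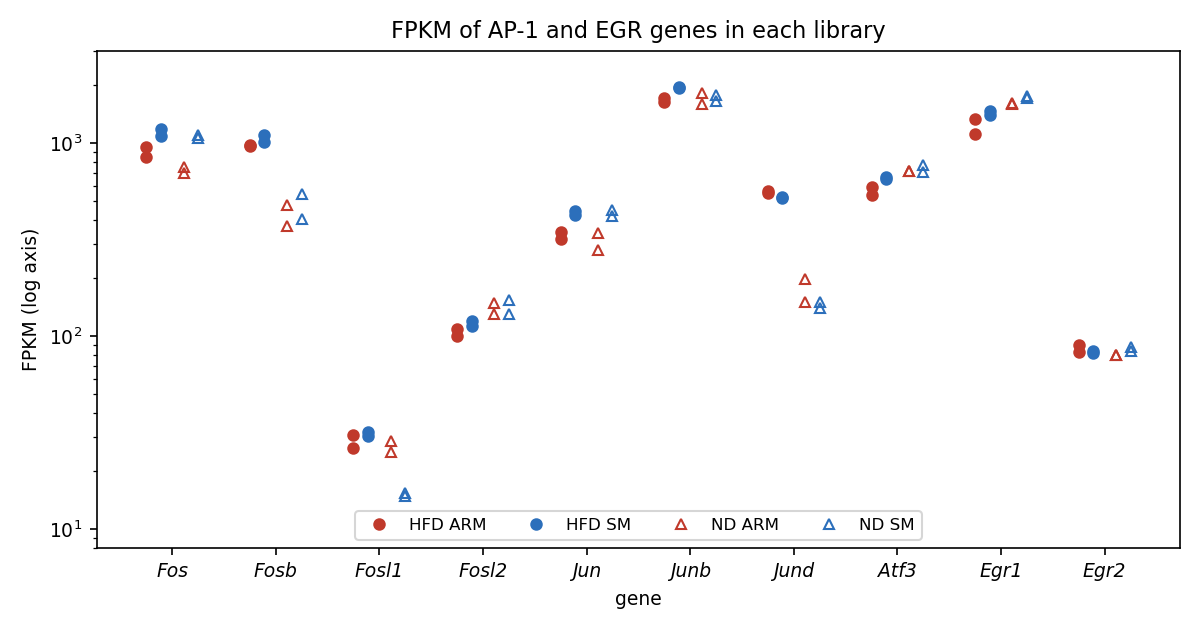
FPKM of the 10 genes on a log axis, with 1 point for each of the 8 libraries, coloured by cell type and diet. Junb and Egr1 lie highest and Fosl1 lowest, with the ND SM libraries of Fosl1 (15.4 and 14.8 FPKM) below its other 6 libraries.

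Fos and Jun were lower in ARMs than in SMs in both diets, by less than the fold threshold, and Fosl1 was higher in ND ARMs. No member was called between ARMs and SMs in HFD mice, where a call needed more than a 1.5-fold change together with an adjusted p under 0.05 (Benjamini-Hochberg adjustment of the quasi-likelihood test of edgeR), and 1 was called in ND mice, Fosl1, which was higher in ARMs. DESeq2 called 0 and 1 members, and 7 of the 10 had an unadjusted p under 0.05 under HFD, and 3 under ND, as did 3089 of 13337 and 1858 of 12441 genes tested. The background of such calls was 4.46% higher and 0.292% lower among 13337 genes tested in HFD mice, and 3.55% higher and 0.129% lower among 12441 tested in ND mice. At an adjusted p under 0.05 with no fold threshold, 4 members were lower in HFD ARMs and 0 higher, against 3.02% and 6.53% of all genes tested. The share of lower genes was 6.73% among the 3879 genes with at least as many counts in every library as the lowest member. In ND mice 2 members were lower and 1 higher, against 0.458% and 4.28% of all genes tested, and against 0.671% and 2.58% of the 5659 genes with at least as many counts as the lowest member. The 10 genes had a median log2 fold change of -0.21 under HFD and -0.07 under ND, beside -0.01 and -0.02 over all genes tested. Below 0 were 8 of the 10 in each diet. For 7 of the 10 under HFD and 4 of the 10 under ND, the 2 ARM values were lower than either SM value, as they were for 21.3% and 22.4% of all genes tested. For 1 of the 10 in each diet they were higher than either SM value (29.2% and 20.9% of all genes).

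**Figure D2:**
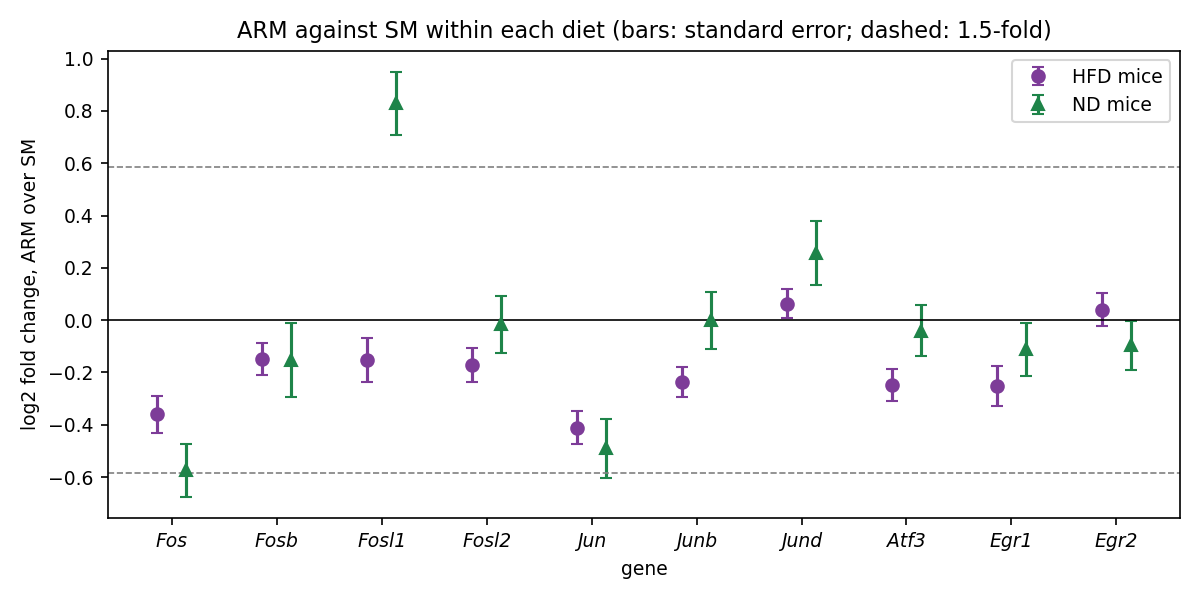
Log2 fold change of ARMs over SMs for each of the 10 genes in HFD and ND mice, from edgeR, with bars of 1 standard error and dashed lines at a 1.5-fold change. Fosl1 in ND mice (0.83) is the only point past a dashed line, and Fos and Jun lie below 0 in both diets.

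Among the FOS genes, Fos itself (c-FOS, the founding partner of JUN in AP-1, at chr12:85473890-85477274) was lower in ARMs in both diets. In HFD mice it measured 850 and 950 FPKM in the ARM libraries and 1183 and 1081 in the SM libraries. Both ARM libraries were below both SM libraries, with a log2 fold change of -0.36 (SE 0.07, adjusted p = 0.0109), which is 1.28-fold lower and within the 1.5-fold threshold. The log2 fold change was -0.29 without HFD ARM replicate 1 and -0.43 without HFD ARM replicate 2, in fits that leave 1 ARM library. The adjusted p was 0.105 in edgeR with no filter on low counts. In ND mice Fos measured 698 and 750 FPKM in ARMs and 1058 and 1100 in SMs. These groups did not overlap either, and the log2 fold change was -0.57 (SE 0.10, adjusted p = 0.00291), or 1.49-fold lower, just inside the fold threshold. The adjusted p remained under 0.05 with each ND library left out, and Fos passed the fold threshold without ND ARM replicate 2 (-0.64, adjusted p = 0.0194) and without ND SM replicate 1 (-0.61, adjusted p = 0.00776).

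Fosl1 (FRA-1, a FOS protein without the strong activation domain of c-FOS, at chr19:5447698-5455938) was the 1 member whose ARM to SM relation differed between the diets. In ND mice it measured 25.2 and 28.5 FPKM in ARMs and 15.4 and 14.8 in SMs. Both ARM libraries were above both SM libraries, and Fosl1 was called higher in ARMs with a log2 fold change of 0.83 (SE 0.12, adjusted p = 0.000715), or 1.78-fold. The log2 fold change stayed between 0.73 and 0.92 with each ND library left out, with adjusted p from 0.00156 to 0.0213. In HFD mice Fosl1 measured 30.6 and 26.4 FPKM in ARMs and 31.9 and 30.2 in SMs. These libraries overlapped, and the log2 fold change was -0.15 (SE 0.08, adjusted p = 0.324). The difference between diets, HFD less ND, was -0.997 on the log2 scale (SE 0.14, adjusted p = 0.0167 for the interaction in edgeR), where 22 of 13358 genes tested (0.165%) passed. Leaving out 1 library at a time gave -1.12 to -0.88, and the adjusted p missed 0.05 without HFD ARM replicate 1 (0.052), HFD ARM replicate 2 (0.0871), ND SM replicate 1 (0.13) or ND SM replicate 2 (0.0885). Side by side, ARMs of both diets and SMs of HFD mice stood at 25.2 to 31.9 FPKM, and the ND SM libraries stood lowest. The counts of Fosl1 were not whole numbers in any library, so that part of its reads had been shared out by the authors' counting, which can differ between the tables of the diets.

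Fosb and Fosl2 did not pass the adjusted threshold in either diet. Fosb, a close relative of c-FOS, measured 960 and 975 FPKM in HFD ARMs and 1093 and 1010 in HFD SMs, without overlap, and its log2 fold change was -0.15 (SE 0.06, adjusted p = 0.179). In ND mice it measured 373 and 476 FPKM in ARMs and 404 and 541 in SMs, and the groups overlapped (-0.15, SE 0.14, adjusted p = 0.714). Fosl2 (FRA-2, like FRA-1 without the activation domain of c-FOS) measured 101 and 109 FPKM in HFD ARMs against 112 and 119 in SMs, lower without overlap but with an adjusted p of 0.133 (log2 fold change -0.17, SE 0.06). In ND mice the libraries of Fosl2 were interleaved, at 131 and 149 FPKM in ARMs and 130 and 153 in SMs.

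Among the JUN genes, Jun (c-JUN, the main partner of FOS proteins and a target of JNK, at chr4:95049036-95052222) was lower in ARMs in both diets. In HFD mice it measured 316 and 347 FPKM in ARMs and 442 and 422 in SMs. The groups did not overlap, and the log2 fold change was -0.41 (SE 0.06, adjusted p = 0.00299), or 1.33-fold lower. Without HFD ARM replicate 1 the adjusted p was 0.0715, and with no filter on low counts it was 0.0579. In ND mice Jun measured 278 and 340 FPKM in ARMs and 448 and 421 in SMs. The groups again did not overlap, and the log2 fold change was -0.49 (SE 0.11, adjusted p = 0.0204), or 1.40-fold lower. The adjusted p was 0.128 without ND ARM replicate 1 (-0.35) and 0.116 without ND SM replicate 1 (-0.45), and without ND ARM replicate 2 Jun passed the fold threshold (-0.65, adjusted p = 0.019). With limma on log2 FPKM at pseudocounts of 1 and 0.1 the adjusted p in ND mice was 0.069 and 0.0671.

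Junb (a JUN protein often opposed to c-JUN in growth control, at chr8:84976909-84978748) measured 1627 and 1703 FPKM in HFD ARMs and 1936 and 1914 in HFD SMs. It was lower in ARMs without overlap by a log2 fold change of -0.24 (SE 0.06, adjusted p = 0.0287), and the adjusted p ran from 0.0552 to 0.201 with each of the 4 HFD libraries left out, so that no left-out fit kept it under 0.05. With all HFD libraries kept, 5 of 10 alternative fits (edgeR, DESeq2 or limma) gave Junb an adjusted p under 0.05. In ND mice Junb measured 1592 and 1805 FPKM in ARMs and 1762 and 1640 in SMs, with complete overlap (log2 fold change 0.00, adjusted p = 0.998). Jund, the most steadily expressed JUN gene in many cells, was the 1 member whose HFD ARM libraries both stood above both SM libraries, at 549 and 562 FPKM against 526 and 517, with a log2 fold change of 0.06 (SE 0.06, adjusted p = 0.576). In ND mice Jund measured 150 and 197 FPKM in ARMs and 151 and 140 in SMs, with overlap (0.26, SE 0.12, adjusted p = 0.343). The ND value rested on the ARM libraries, at 0.44 (adjusted p = 0.0428) without ND ARM replicate 1 and 0.04 (adjusted p = 0.975) without ND ARM replicate 2.

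Atf3, a stress-induced repressor that pairs with JUN proteins (at chr1:191170296-191183333), measured 538 and 589 FPKM in HFD ARMs and 650 and 663 in HFD SMs. It was lower in ARMs without overlap (log2 fold change -0.25, SE 0.06, adjusted p = 0.0337). With all HFD libraries kept, 4 of 10 alternative fits (edgeR, DESeq2 or limma) gave an adjusted p under 0.05. The adjusted p was 0.272 without HFD ARM replicate 1, 0.132 without HFD ARM replicate 2 and 0.0731 without HFD SM replicate 2. In ND mice Atf3 measured 714 and 718 FPKM in ARMs and 708 and 765 in SMs, with overlap (-0.04, adjusted p = 0.911).

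The EGR genes did not pass the adjusted threshold with all libraries in. Egr1, which is induced by growth factors and by stress, measured 1117 and 1323 FPKM in HFD ARMs and 1386 and 1461 in SMs, lower without overlap (log2 fold change -0.25, SE 0.08, adjusted p = 0.0697). The HFD value was -0.15 (adjusted p = 0.414) without HFD ARM replicate 1 and -0.29 (adjusted p = 0.0442) without HFD SM replicate 1, and DESeq2 gave an adjusted p of 0.0171. In ND mice it measured 1587 and 1606 FPKM in ARMs and 1698 and 1756 in SMs, again without overlap (-0.11, SE 0.10, adjusted p = 0.71). Egr2, a factor of myeloid and Schwann cell differentiation, measured 82.6 and 90.1 FPKM in HFD ARMs and 81.7 and 83.3 in SMs, with overlap (0.04, SE 0.06, adjusted p = 0.777). In ND mice Egr2 stood at 80.1 and 79.7 FPKM in ARMs, below the 87.6 and 83.1 of SMs (-0.10, adjusted p = 0.737). Besides Fosl1, the other 9 members gave adjusted p from 0.649 to 0.998 for a difference between the diets in the ARM to SM change.

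The families are also described by the share of each gene in their summed FPKM, with no test. Fos made up 44.9% of the summed FPKM of the 4 FOS genes in HFD ARMs (43.8% and 46.1% in the 2 libraries) and 48.6% in HFD SMs (48.9% and 48.3%). In ND mice it made up 55.2% in ARMs (56.9% and 53.4%) and 63.3% in SMs (65.8% and 60.8%). Fosb made up 48.4% in HFD ARMs and 45.1% in HFD SMs, and 32.2% and 27.5% in ND mice. Fosl1 made up no more than 2.05% of the FOS sum in any library. Jun made up 12.7% and 13.3% of the summed FPKM of the 3 JUN genes in the HFD ARM libraries and 15.2% and 14.8% in the SM libraries, and had group means of 14.1% in ND ARMs and 19.0% in ND SMs. Jund made up 21.8% of that sum in HFD ARMs and 18.1% in SMs, but 7.92% and 6.38% in ND mice. Junb was the largest JUN share in all 8 libraries, at group means of 65.2% to 77.9%.

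**Figure D3:**
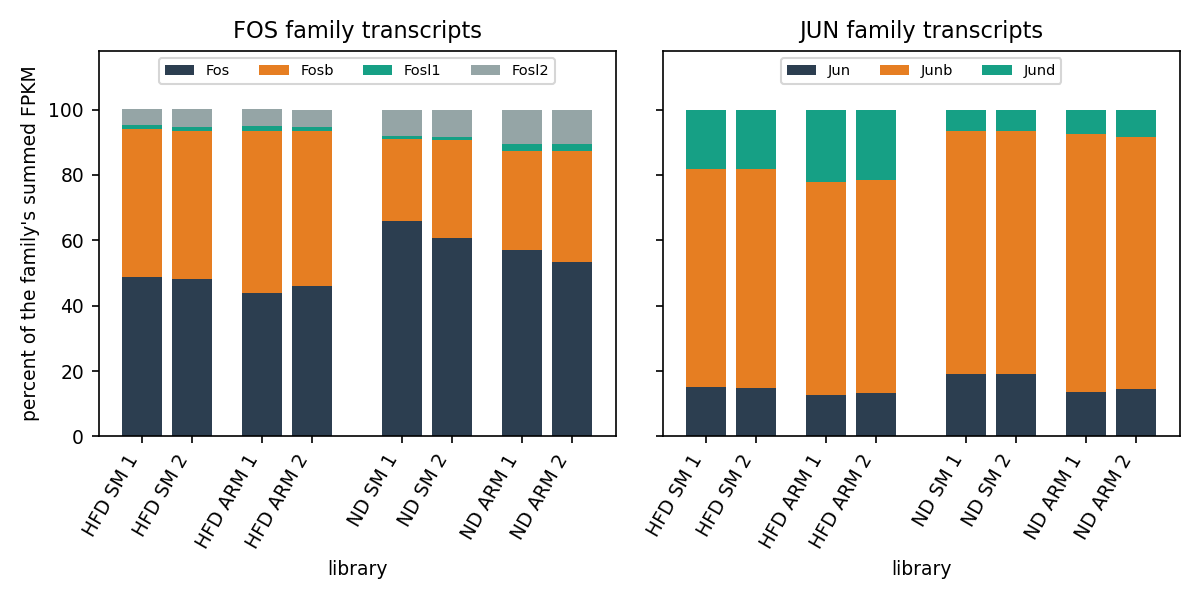
Stacked bars of the percent of each family's summed FPKM taken by each FOS gene (left) and each JUN gene (right), with 1 bar per library. Fos takes a smaller share in the ARM bars than in the SM bars of the same diet (44.9% against 48.6% in HFD, 55.2% against 63.3% in ND, group means), and Jund a larger share in the HFD bars than in the ND bars.

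Levels in HFD mice are set beside those in ND mice as values only, because the 2 tables were made differently and diet and table cannot be told apart. Jund was 3.35 times as high in HFD ARMs as in ND ARMs and 3.83 times in SMs (ratios of mean CPM), above 99.6% and 99.7% of all genes compared. Fosb was 2.33 and 2.32 times as high, above 99.0% and 98.8% of genes. Fosl1 was 1.15 times as high in ARMs and 2.27 times in SMs. The others lay between 0.767 and 1.32 times. For Fosb and Jund every HFD library exceeded every ND library of the same cell type in FPKM. For Fosl2, Atf3 and Egr1 every HFD library was below, also in FPKM. The share of all genes that separate in these ways between the diets was not counted. These separations are therefore not read as a result about the members. The length implied by count and FPKM was longer in HFD than in ND libraries (ratios 1.04 for Fosl2, 1.08 for Atf3, 1.06 for Egr1). A longer length lowers FPKM at a given count. In CPM the SM libraries of Atf3 overlapped between the diets (1300 to 1320 in HFD and 1300 to 1400 in ND mice). The HFD over ND ratio of all genes moved with GC content: in SMs its median on the log2 scale was -0.32 in the decile of genes with the lowest GC content and 0.29 in the decile with the highest. Jund (67.1% GC), Junb (62.6%) and Fosl1 (58.5%) are in the highest decile and Fosb (56.0%) is in the next, and the log2 ratios of Jund (1.94), Fosb (1.22) and Fosl1 (1.18) in SMs were above the 90th percentile of their decile (0.84 in the highest, 0.605 in the next). The part of GC content in these ratios was not tested.

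**Figure D4:**
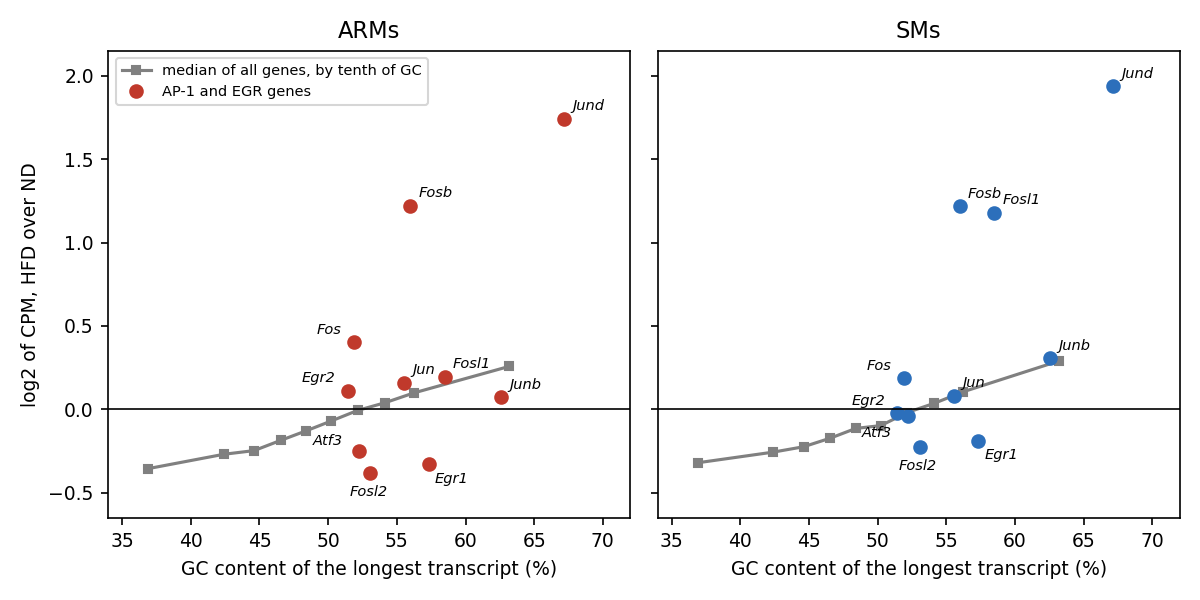
Log2 ratio of mean CPM, HFD over ND, against GC content of the longest transcript, in ARMs and in SMs, with the 10 genes as labelled points over the medians of 10 equal groups of genes by GC content. In the SM panel Jund (1.94), Fosb (1.22) and Fosl1 (1.18) lie far above the medians, which run from -0.32 to 0.29.

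Other genes of the pathway were examined by lists. Of 11 further AP-1 partners (BATF, JDP2, ATF and MAF proteins) 0 were called in either diet. At an adjusted p under 0.05 alone, Maff, a small MAF protein singled out after its values were seen, was higher in ND ARMs (0.52, adjusted p = 0.00482). Of 3 tested genes among EGR3, EGR4 and the NAB corepressors, 0 were called, and of 29 upstream kinases and factors (MAP kinases, SRF, ELK and CREB) 0 were called in either diet, with medians of -0.02 (HFD) and 0.03 (ND). DESeq2 called 0 genes of these 3 lists. In edgeR 4 of the 11 partners, 0 of the 3 EGR and NAB genes and 4 of the 29 upstream genes had an unadjusted p under 0.05 in HFD mice, and 3, 0 and 4 in ND mice.

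The feedback inhibitors, which remove phosphate from MAP kinases, block receptor signals or destabilise short-lived transcripts, were called higher for 2 of 17 genes in HFD ARMs and for 2 of 16 in ND ARMs, where 1 was called lower. The HFD genes were Spry1, an inhibitor of receptor tyrosine kinase signalling, at 4.26 and 4.27 FPKM in ARMs against 1.94 and 1.73 in SMs (1.20, adjusted p = 0.000871), and Spry4, at 0.96 and 1.24 against 0.46 and 0.41 (1.30, adjusted p = 0.00506). The ND genes were Dusp5 and Dusp8 (higher, 0.69 and 0.81) and Dusp6. Dusp6, the cytoplasmic ERK phosphatase whose own gene is induced by ERK, measured 23.5 and 23.0 FPKM in ND ARMs and 41.2 and 39.4 in ND SMs (-0.79, adjusted p = 0.000238). In HFD mice it measured 38.8 and 41.0 FPKM in ARMs against 50.6 and 43.1 in SMs (-0.26, adjusted p = 0.072). The number called fell to 1 in HFD mice without HFD ARM replicate 2 and to 2 in ND mice without ND ARM replicate 2 or ND SM replicate 1.

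Of 39 other immediate-early genes 1 was called lower in HFD ARMs and 5 were called higher in ND ARMs. The HFD gene was Klf2, a factor of quiescence in endothelial and immune cells, which was lower in ARMs at 190 and 213 FPKM against 317 and 288 in SMs (-0.62, adjusted p = 0.000616). At an adjusted p under 0.05 alone 12 of the 39 were lower in HFD ARMs and 4 higher, and the list's median was -0.18. These 12 included Klf10 (-0.48), Cebpd (-0.43), Socs3 (-0.41) and Ier2 (-0.35), which were singled out after their values were seen. That count was smaller in the fits without 1 HFD ARM library, which leave 1 library in that group and so have less replication. Klf2 was not called without HFD ARM replicate 1 or without HFD SM replicate 1. In ND mice 0 were called lower, and the list's median was 0.15. DESeq2 called 3 genes higher in ND mice. At an adjusted p under 0.05 alone 11 were higher in ND ARMs and 2 lower, and without ND ARM replicate 2 these counts were 1 and 1. The largest were Ctgf, a matricellular protein (1.72, adjusted p = 0.0478, at 0.79 and 0.95 FPKM against 0.39 and 0.14), Myc (0.81) and Errfi1, an inhibitor of the EGF receptor (0.75, adjusted p = 0.000296, at 94.1 and 99.4 FPKM against 55.6 and 59.3). Without ND ARM replicate 2 or ND SM replicate 1, 1 of these calls was made, and without ND SM replicate 2, 3. Klf2 (-0.53, adjusted p = 0.00361) and Ier2 (-0.46, adjusted p = 0.0185) were also lower in ND ARMs, by less than the fold threshold. Of the 39 genes 34 had a lower ARM to SM change in HFD than in ND mice, with a median difference of -0.28, beside 7383 of all 13358 genes tested and their median of -0.03, and 1 of them, Errfi1, passed the test of that difference.

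Genes known to be induced when tissue is dissociated (heat shock genes, Zfp36, Dusp1, Mt1 and others outside the 10 members) were examined because all libraries were digested. In HFD mice 1 of 34 was called, Klf2, and at an adjusted p under 0.05 alone 13 were lower in ARMs and 3 higher, with a median of -0.18. Their summed level was 32700 to 33400 CPM in HFD ARMs and 35300 to 36200 in HFD SMs. In ND mice 0 were called and 2 were lower at an adjusted p under 0.05 alone, with a median of -0.05 and a summed level of 31300 to 31400 CPM in ARMs against 32600 to 32700 in SMs. Without HFD ARM replicate 1 the number lower in HFD mice was 1, and without HFD ARM replicate 2 it was 2. In ND mice DESeq2 also called 0, and 11 had an unadjusted p under 0.05. The list shares 16 genes with the immediate-early list, and the part of digestion in the members' values was not tested.

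Genes with known AP-1 control were higher in ARMs where they were called. Of 19 tested, 4 were called higher in HFD ARMs and 8 in ND ARMs, with 0 lower in either diet, and the medians were 0.34 and 0.44. At an adjusted p under 0.05 alone 11 were higher and 1 lower in HFD ARMs, and 9 were higher and 0 lower in ND ARMs. The lower gene was Hmox1, heme oxygenase, at 1088 and 926 FPKM in HFD ARMs against 1299 and 1290 in SMs (-0.39, adjusted p = 0.0134). Called in both diets were Mmp13, a collagenase, Mmp12, the macrophage elastase, Spp1, osteopontin, and Vegfa. Mmp13 measured 16.4 and 19.4 FPKM in HFD ARMs against 7.59 and 8.79 in SMs (1.10, adjusted p = 0.00013), and 10.2 and 9.53 against 4.26 and 4.72 in ND mice (1.14, adjusted p = 0.000212). Spp1 measured 10.6 and 21.4 FPKM against 6.91 and 6.95 in HFD mice (1.16, adjusted p = 0.0191), so that 1 ARM library was well above the other, and 26.8 and 23.9 against 11.6 and 13.1 in ND mice (1.04, adjusted p = 0.00026). In ND mice Ptgs2, Plaur, Plau and Tnf were called as well (0.65, 0.63, 0.59 and 0.59). The number called was 2 in HFD mice without HFD ARM replicate 2 and 5 in ND mice without ND ARM replicate 2. Protein levels and binding of AP-1 were not examined here, and several of these genes are also expressed by the other cells whose markers were higher in ARMs. The authors reported more c-JUN protein in HFD ARMs than in SMs, and AP-1 motifs enriched in chromatin peaks specific to HFD ARMs. Those are other measures than the RNA levels given here.

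**Figure D5:**
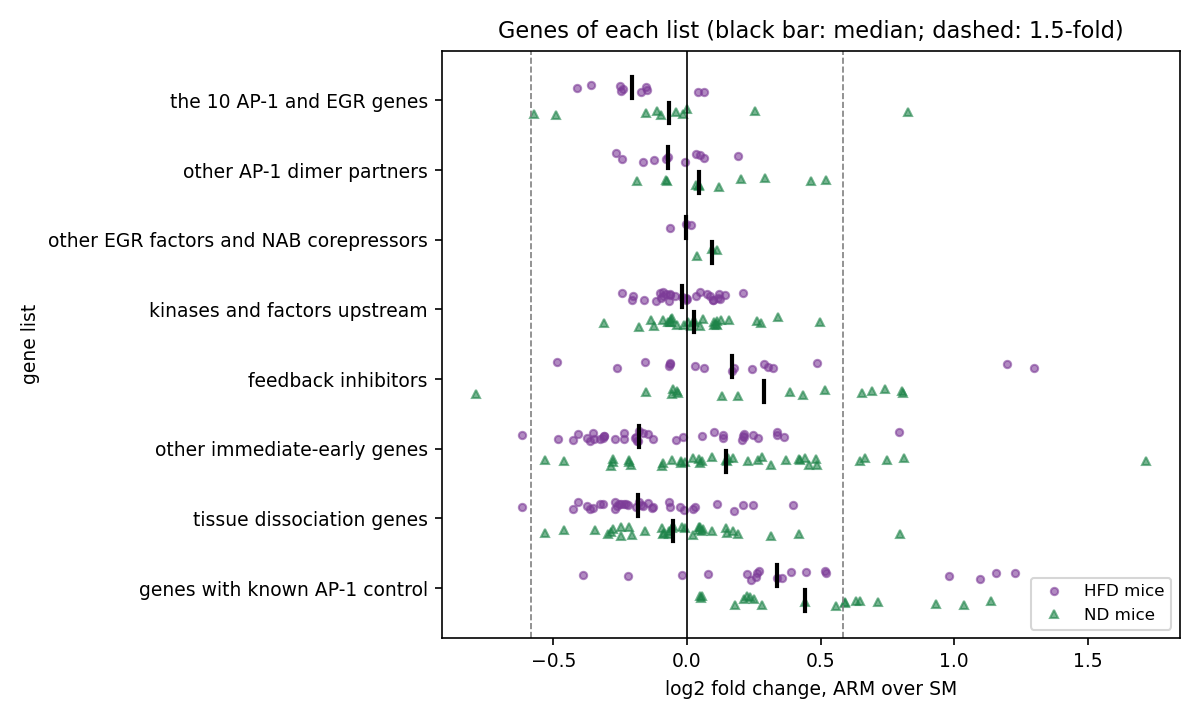
Log2 fold change of ARMs over SMs for each gene of the members and of 7 pathway lists, in HFD and ND mice, with a black bar at each list's median and dashed lines at a 1.5-fold change. The list medians of other immediate-early genes lie on opposite sides of 0 (-0.18 in HFD, 0.15 in ND), and those of genes with known AP-1 control lie above 0 in both (0.34 and 0.44).

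Across the 8 libraries, centred within each diet, the members did not vary as 1 block. Each member's Pearson correlation with the mean of the 10, which contains it, was 0.91 for Junb, 0.85 for Atf3, 0.84 for Fosl2, 0.80 for Egr1, 0.79 for Jun, 0.72 for Fosb and 0.66 for Fos, but 0.15 for Jund, 0.02 for Fosl1 and -0.01 for Egr2. The 5 other genes most like that mean, out of 7995 with a mean of at least 10 CPM in both diets, were Nfil3 (0.99), Tbxas1 (0.98), Scaf8 (0.97), Socs3 (0.96) and Stat5b (0.96). These coefficients describe 8 libraries that fall into 4 groups, and no p is given for them.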

How the data were processed

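RNA-seq tables of 8 libraries (2 for each of HFD ARM, HFD SM, ND ARM and ND SM) were used as deposited, with 1 table per diet. The authors deposited an estimated count, an FPKM (fragments scaled by transcript length and library size) and a TPM for each gene and library, and TPM was not used. The aligner and counter are not given in the sources used here, and the submitters' processing notes name the mm10 genome build. Between 32.3% and 32.9% of the estimated counts in the HFD libraries and 8.55% to 9.36% in the ND libraries were not whole numbers, so the deposited counts of the diets were made differently. The members and lists were chosen with earlier results of these data known.

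Counts were rounded and fitted within each diet with edgeR 4.0.16 in R 4.3.3 (TMM normalization, the filter on low counts, quasi-likelihood test, Benjamini-Hochberg adjustment over all genes tested). Calls needed both an adjusted p under 0.05 and a change of more than 1.5-fold. The difference between diets was the interaction term in 1 fit of all 8 libraries. TMM factors were 0.989 to 1.02, and the biological coefficient of variation was 5.55% in HFD and 8.61% in ND mice. Replicates differed by more than sampling noise (mean chi-square per gene 4.22 to 10.1). An exact test cannot pass with 2 libraries against 2. Alternatives were DESeq2 1.42.0, scaling by upper quartile or by library totals, a minimum of 10 counts in all libraries, no minimum, the replicate number as a block, 1 fit of all libraries, limma 3.58.1 on log2(FPKM + 1) or log2(FPKM + 0.1), and each library left out. Counts at an adjusted p alone were added after the data were seen. Named from the lists other than markers are genes called in both diets and, for each diet, up to 3 more called in that diet only. Tnf and Hmox1 were named outside this rule, as were those said to be singled out. Promoter windows and gene positions came from RefSeq (GRCm38.p6). Scripts were tested on simulated data, and plots were made in matplotlib 3.10.9 (Python 3.11.15).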

Additional observations from a re-analysis of the deposited data

Results flagged for a closer look

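The ARM to SM change of Fosl1 differed between the diets in the test of the difference itself: the change in HFD mice less that in ND mice was -0.997 on the log2 scale (adjusted p = 0.0167, edgeR). The libraries behind it are given above, and 4 of the 8 fits with 1 library left out gave an adjusted p over 0.05. The ARM to SM change of Errfi1, an inhibitor of the EGF receptor, also differed, by -0.71 (SE 0.11, adjusted p = 0.0167), with 94.1 and 99.4 FPKM in ND ARMs against 55.6 and 59.3 in ND SMs, and 66.2 and 66.9 FPKM in HFD ARMs against 61.7 and 63.8 in HFD SMs. The 2 diets were deposited in tables made differently, so diet and table cannot be told apart in either difference. Single samples were not screened for outlying values, since each group held 2 libraries.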

How the results depend on the processing

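The number of genes called in HFD mice (634) was 383 with DESeq2, 181 with no filter, 331 and 405 with limma at pseudocounts of 1 and 0.1, 35 with limma and no filter, and 214 to 637 with 1 library left out (214 without HFD ARM replicate 2, 309 without HFD ARM replicate 1). In ND mice (458) it was 267 with DESeq2, 786 with the replicate block, 214 and 219 with limma, 0 with limma and no filter, and 188 to 661 with 1 library left out (188 without ND ARM replicate 2, 254 without ND SM replicate 1). Members called stayed at 0 in HFD mice in every fit. In ND mice the 1 call was lost with limma and no filter (0), and 1 to 3 were made with 1 library left out. Members at an adjusted p under 0.05 in HFD mice (4) were 0 with no filter, 2 with limma at either pseudocount, 0 with limma and no filter, 2 in 1 fit of all libraries, and 0 to 4 with 1 library left out. In ND mice (3) they were 0 with limma and no filter, 2 with limma at either pseudocount, where Jun was lost, and 2 to 3 with 1 library left out. The 1 member that passed the difference between diets became 0 to 1. Limma with no filter also kept the rows of low FPKM, and the cause of none of these changes was tested. The replicate numbers were not treated as pairs, because the labels do not say that they mark a shared batch (correlation of same-numbered deviations -0.03 in HFD, 0.22 in ND). With the replicate block 5 members in HFD mice and 4 in ND mice had an adjusted p under 0.05, and the members called were unchanged in number. The share of all genes under that threshold in the block fit was not counted, while its calls in ND mice were 786 beside 458. The member counts of that fit are therefore not read as a result about the members.

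Changes near 0 turned sign. In ND mice Junb (-0.0014) was 0.0048 with at least 10 counts per library, 0.0074 in 1 fit of all libraries and -0.105 to 0.0908 with 1 library left out, and the left-out ranges were -0.0113 to 0.0944 for Egr2 in HFD mice, and -0.36 to 0.0754 for Fosb, -0.14 to 0.11 for Fosl2 and -0.10 to 0.0192 for Atf3 in ND mice. In the difference between diets, Fosb was 0.0064 with DESeq2, 0.0389 with library totals and 0.0117 with at least 10 counts, and left-out ranges were -0.22 to 0.22 for Fosb, -0.0445 to 0.23 for Jun and -0.36 to 0.0167 for Jund. Each group held 2 libraries, and the part of library number or depth in these changes was not tested.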

Other observations

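The 5 genes most like the members' mean were chosen on these same libraries, so their ARM to SM changes are a description and carry no test. The log2 fold changes were -0.39 in HFD and -0.05 in ND mice for Nfil3, a leucine zipper repressor, and -0.41 and -0.09 for Socs3, a feedback inhibitor of cytokine signalling. Of the remaining marker lists, those of pericytes and smooth muscle were called higher in ARMs for 3 of 8 genes in HFD mice and 2 of 7 in ND mice. Those of lymphatic endothelium were called higher for 3 of 7 and 4 of 7. The summed level of the lymphatic list was nevertheless lower in HFD ARMs (1050 to 1220 CPM against 1620 to 1720 in SMs). In ND mice it overlapped (1440 to 1560 against 1550 to 1820). Lyve1 of this list was lower in HFD ARMs, by less than the fold threshold (-0.58, adjusted p = 0.00134, edgeR). It measured 459 and 399 FPKM in HFD ARMs against 647 and 609 in HFD SMs. Each other tested gene of the list stood at 5.25 FPKM or less in HFD mice. The summed level therefore mostly followed Lyve1 and not the genes called higher. Proliferation genes were called for 0 of 7 in either diet by edgeR, with 5 and 2 at an unadjusted p under 0.05.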
